A study of Bos taurus with 6 samples.

Results

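Myosin light chains are the small subunits that sit on the neck of each myosin heavy chain, and the kinases described with them phosphorylate the regulatory ones. The 9 genes were taken by name from the 21972 genes of the deposited FPKM table (fragments per kilobase of gene, scaled to the reads counted in the library). They are 7 light chain genes, MYL1, MYLPF, MYL2, MYL3, MYL6B, MYL6 and MYL4, and 2 kinase genes, MYLK2 and MYLK4. All 9 were matched to 1 gene each, the first entry of that name. All 9 passed the filter on low values, a mean of at least 1 FPKM over the 6 libraries. Longissimus dorsi, the long muscle of the back, was sampled in 3 Japanese black (Wagyu) animals, called WC616, WC719 and WC921. The other 3 animals, called RC4, RC5 and RC6, were Chinese Red Steppes cattle. All 6 animals were males of 28 months, and 1 poly(A) library was sequenced per animal. The animals of a breed had 1 sire and were kept on 1 farm, so breed, sire and farm cannot be told apart. Nothing in the labels ties animals to batches, and p-values measure the spread between these 6 animals only.

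Each muscle myosin head carries an essential and a regulatory light chain, and fast and slow muscle fibres use different genes for both. In fast fibres of mammals the essential chain comes from MYL1 and the regulatory chain from MYLPF. In slow fibres, and in the ventricle of the heart, the essential chain comes from MYL3 and the regulatory chain from MYL2. MYL6B encodes a further essential chain, known from slow skeletal fibres and non-muscle cells in humans. Calcium-bound calmodulin switches on the light chain kinase of skeletal muscle, encoded by MYLK2. Phosphorylation of the regulatory chain raises the force of a fibre at a given level of calcium.

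The FPKM values rest on 15438095 to 16197141 reads counted to genes per library. RC6 stood apart from the other 5 libraries. Reads of 13 mitochondrially encoded protein genes made up 10.4% of its reads, against 4.79% to 5.79% in the others. The HOX genes of the C cluster and PITX1, a factor of the hind limb, are known to differ with position along the body and were looked at after their values were seen. HOXC6 stood at 1.88 FPKM in RC6 and at 26.7 to 35.2 FPKM in the other 5 libraries, and HOXC8 at 1.07 FPKM against 19.1 to 24.0 FPKM. HOXC5 was also lower in RC6, at 0.0863 FPKM against 2.35 to 5.43 FPKM, as was HOXC4, at 0.0787 FPKM against 0.383 to 0.889 FPKM, and HOXC9 less so, at 7.06 FPKM against 14.4 to 17.1 FPKM. HOXC10, at 29.1 FPKM in RC6, lay within the 14.6 to 49.6 FPKM of the others. HOXC11 stood at 2.97 FPKM in RC6 and at 0 to 0.0531 FPKM in the others. PITX1 was at 18.5 FPKM in RC6 and also at 13.9 FPKM in WC616, against 0.0673 to 1.50 FPKM elsewhere. All 6 libraries are labelled as the same muscle, and whether RC6 was taken at the same place was not tested. Values are therefore given with and without RC6 where they rest on it.

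MYL2 and MYLPF, the slow and the fast regulatory chain, were the most abundant members in 5 of the 6 libraries. The 9 genes together took 2.96% of the counted reads in WC616, 2.57% in WC719 and 2.26% in WC921. They took 2.27% in RC4, 2.26% in RC5 and 3.63% in RC6. In the Wagyu libraries the order of the levels was MYL2, MYLPF and MYL1, while in RC4 and RC5 MYLPF came before MYL2. In RC6, MYL2 was followed by MYL3 and only then by MYLPF. MYL4 and MYLK4 were the lowest members in all 6 libraries, at 0.589 to 3.21 FPKM.

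**Figure D1:**
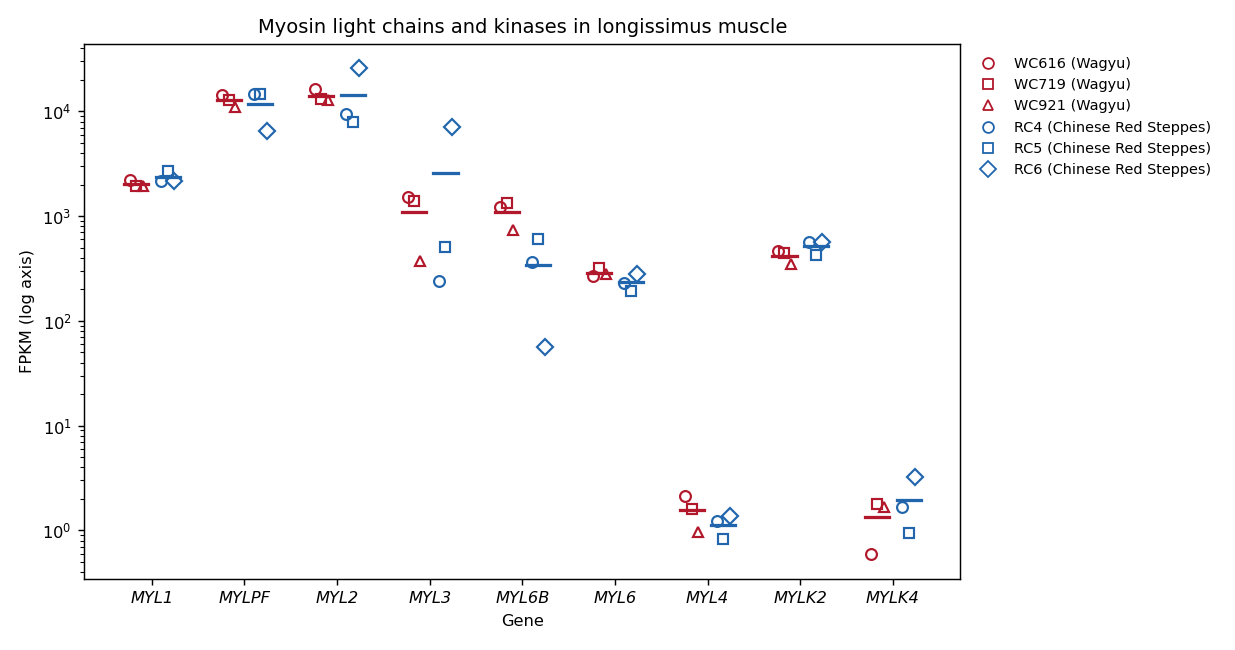
FPKM of the 9 genes on a log axis, with 1 point per library and a bar at the mean of each breed (Wagyu in red, Chinese Red Steppes in blue, n = 3 each). RC6, the diamond, lies above all other libraries in MYL2 and MYL3 and below all of them in MYLPF and MYL6B.

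None of the 9 genes passed the comparison of the breeds. Wagyu was set against Chinese Red Steppes with limma on log2(FPKM + 1) over 9990 genes, two-sided, and a gene passed at a Benjamini-Hochberg adjusted p under 0.05. In that test 0.02% of all genes tested passed. At an unadjusted p under 0.05, which 14.5% of all genes reached, there was 1 of the 9 genes, MYL6B. The log2 fold changes were above 0 for 5 members and below 0 for 4, with a median of 0.18, beside a median of 0.03 over all genes tested. edgeR and DESeq2, run on reads recovered from the FPKM, also called none of the 9, though DESeq2 gave MYL3 no p-value.

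The slow regulatory chain MYL2 was at 16462 FPKM in WC616, 13116 in WC719 and 12973 in WC921, against 9419 FPKM in RC4, 7926 in RC5 and 25809 in RC6. The 3 Wagyu values lay close together and fell between RC4 and RC5 on the low side and RC6 on the high side. Mean levels were 14184 ± 1974 FPKM in Wagyu muscle, against 14385 ± 9922 FPKM in that of Chinese Red Steppes (SD, n = 3 per breed). The log2 fold change was 0.18 (standard error 0.43, 95% interval -0.82 to 1.18, limma adjusted p = 0.877). Without RC6 it was 0.71 (standard error 0.17, limma adjusted p = 0.201), so it did not pass there either. The mean of Wagyu was then 1.64 times that of RC4 and RC5.

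MYLPF, the fast regulatory chain, was at 14232 FPKM in WC616, 12976 in WC719 and 11027 in WC921, against 14582 FPKM in RC4, 14522 in RC5 and 6524 in RC6. RC4 and RC5 differed by under 1% and lay just above the highest Wagyu library, while RC6 lay below all others. The log2 fold change was 0.19 (standard error 0.34, adjusted p = 0.833 from limma), and without RC6 it was -0.20 (standard error 0.15, adjusted p = 0.623 from limma).

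Set against each other, the regulatory chains gave MYL2 a share of 53.6% of their summed FPKM in WC616, 50.3% in WC719 and 54.1% in WC921. The shares were 39.2% in RC4, 35.3% in RC5 and 79.8% in RC6. The breed means, 52.7% ± 2.07 in Wagyu muscle, against 51.5% ± 24.6 in that of Chinese Red Steppes (SD, n = 3 per breed), differed by 1.19 percentage points, less than the spread between animals. Without RC6 the difference was 15.4 percentage points, with every Wagyu library above RC4 and RC5. Leaving out RC4 or RC5 instead reversed it, to -4.91 and -6.88 percentage points. No test was made of these shares, since the genes were chosen with results of these libraries known. In whole muscle, more fibres of a type and more of its RNA per fibre cannot be told apart. The sum of both chains varied less than either did, from 22448 FPKM in RC5 to 32333 FPKM in RC6, a 1.44-fold range, against 3.26-fold for MYL2 and 2.24-fold for MYLPF.

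MYL1, the fast essential chain, varied least of the 9 genes across the libraries. Its gene gives a longer and a shorter chain from different starts, and its FPKM covers both. It was at 2231 FPKM in WC616, 1948 in WC719 and 1929.8 in WC921, against 2189.9 FPKM in RC4, 2720.5 in RC5 and 2154 in RC6. The breeds overlapped, and the highest value was 1.41 times the lowest. MYL1 in RC6 was 0.878 times the mean of RC4 and RC5, whereas the fast regulatory chain MYLPF was 0.448 times that mean. Between the breeds its log2 fold change was -0.20 (standard error 0.17, 95% interval -0.59 to 0.19, limma adjusted p = 0.602).

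MYL3, the slow essential chain, varied most. It was at 1509.6 FPKM in WC616, 1392 in WC719 and 377 in WC921, against 239 FPKM in RC4, 512 in RC5 and 7083 in RC6. WC616 and WC719 were well above RC4 and RC5, WC921 lay between those 2, and RC6 was far above all of them. The highest value was 29.7 times the lowest, and its spread within the breeds on the log2 scale lay at the 99.9th percentile of all genes tested. In RC6 it was 18.9 times the mean of RC4 and RC5, a ratio that 9 of 9986 genes reached, MYL3 itself among them. Its log2 fold change of -0.044 had a standard error of 1.17 and a 95% interval of -2.77 to 2.69 (limma adjusted p = 0.991), an interval wide in both directions. Without RC6 the log2 fold change was 1.40 (standard error 0.61, limma adjusted p = 0.406).

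MYL6B was the only one of the 9 genes with no overlap of the breeds, and its 3 Wagyu values were the higher ones. Its values were 1236 FPKM in WC616, 1325 in WC719 and 731 in WC921, against 368 FPKM in RC4, 611 in RC5 and 56.0 in RC6. Over all genes tested, 11.4% had no overlap with Wagyu higher and 9.16% with Wagyu lower, so 1 of 9 genes is near that background. The means were 1097 ± 320.3 FPKM in Wagyu muscle, against 345 ± 278 FPKM in that of Chinese Red Steppes (SD, n = 3 per breed), a 3.18-fold ratio. The log2 fold change was 2.18 (standard error 0.79, 95% interval 0.35 to 4.01) with an unadjusted p of 0.0253 and an adjusted p of 0.303 from limma. Without RC6, the lowest library, the log2 fold change was 1.16 (standard error 0.31, limma adjusted p = 0.244). DESeq2 called MYL6B without RC6 (log2 fold change 1.12, adjusted p = 0.0196), a setting added after the data were seen, in which 1.78% of 13828 genes were called. With all 6 libraries DESeq2 did not call it (adjusted p = 0.439).

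The essential chains MYL3 and MYL6B lay at opposite extremes in RC6, MYL3 at its highest and MYL6B at its lowest level. There were 648 MYL6B reads and 101145 MYL3 reads in that library, and MYL6B was 0.114 times the mean of RC4 and RC5, with 59 of 9986 genes at or below that ratio, MYL6B included. MYL6B thus did not follow the slow genes in RC6, whatever its known use in slow fibres, and is not counted as slow here. Per length, MYL6B stood at 0.00790 times MYL3 in RC6. In the other 5 libraries this ratio ran from 0.818 in WC616 to 1.94 in WC921. MYL6 lies next to MYL6B in the RefSeq genes of assembly ARS-UCD2.0, and in RC6 it was at 283 FPKM, within the range of the other libraries. The sources used here do not say how reads matching more than 1 of these paralogs were counted, which leaves their values uncertain to that extent.

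As shares of the summed FPKM of MYL1, MYL3 and MYL6B, MYL3 and MYL6B together took 55.2% in WC616, 58.2% in WC719 and 36.5% in WC921, against 21.7% in RC4, 29.2% in RC5 and 76.8% in RC6. The breed means of 49.96% ± 11.8 in Wagyu muscle, against 42.6% ± 29.9 in that of Chinese Red Steppes (SD, n = 3 per breed) differed by 7.38 percentage points, within the spread between animals. Without RC6 the difference was 24.5 percentage points. MYL3 alone averaged 24.2% of this sum in Wagyu and 32.7% in Chinese Red Steppes. That difference, -8.49 percentage points, had the opposite sign to the pooled one, and without RC6 it was 13.3 percentage points. MYL6B alone took 24.1% to 28.4% of this sum in the Wagyu libraries, against 13.2% in RC4, 15.9% in RC5 and 0.602% in RC6. MYH7, the slow myosin heavy chain, took 58.7% of the summed FPKM of MYH7, MYH2 and MYH1 in WC616, 56.8% in WC719 and 57.0% in WC921, against 48.8% in RC4, 38.1% in RC5 and 74.3% in RC6. The heavy chains thus ranked RC6 first, the Wagyu libraries next and RC4 and RC5 last, as MYL2 did.

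**Figure D2:**
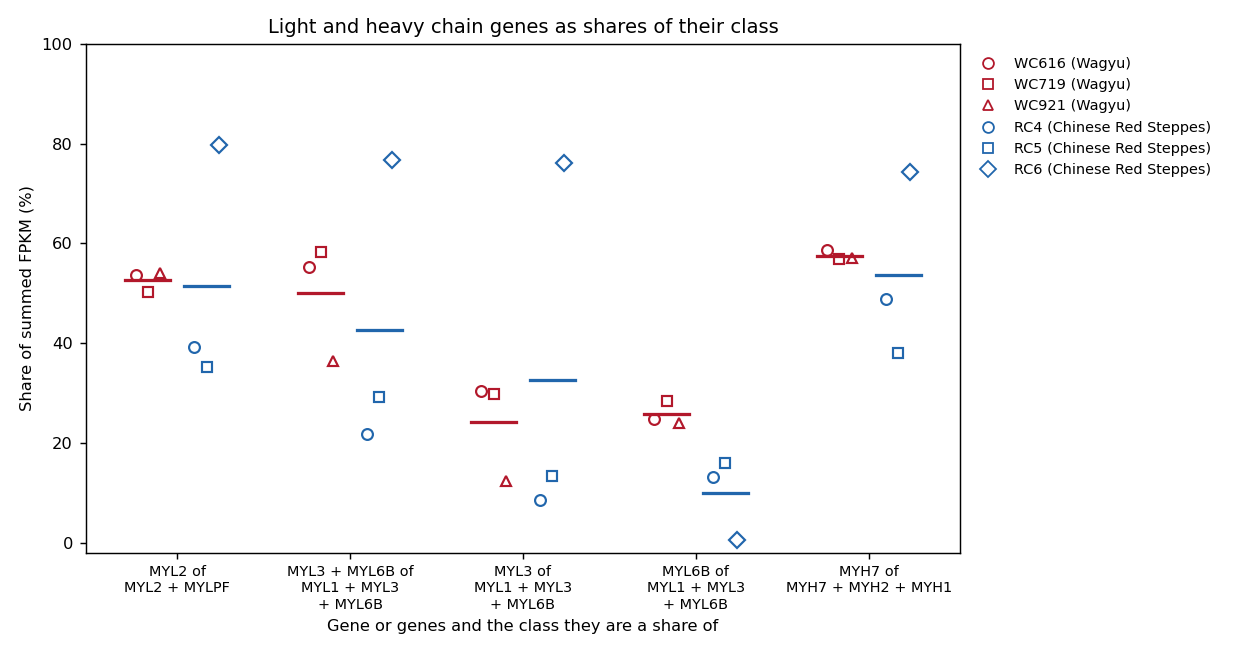
Share of light and heavy chain genes in the summed FPKM of their class, in percent, with 1 point per library and a bar at the mean of each breed (Wagyu left, Chinese Red Steppes right, n = 3 each). For MYL2 the Wagyu libraries lie at 50.3% to 54.1%, RC4 and RC5 below them and RC6 at 79.8%, while the share of MYL6B is lowest in RC6, at 0.602%.

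The regulatory chains outnumbered the essential ones per length in every library, although each myosin head binds 1 of both kinds. The summed FPKM of MYL2 and MYLPF was 6.17 times that of MYL1, MYL3 and MYL6B in WC616, 5.59 times in WC719 and 7.90 times in WC921, against 8.58 times in RC4, 5.84 times in RC5 and 3.48 times in RC6. RC6, the library with the most MYL3, had the lowest ratio. Against the summed heavy chains MYH7, MYH2 and MYH1, the regulatory chains stood at 2.88 to 3.20 in the Wagyu libraries and at 2.64 to 3.82 in the Chinese Red Steppes libraries. The essential chains stood at 0.402 to 0.518 of the heavy chains in the Wagyu libraries, and at 0.355 in RC4, 0.452 in RC5 and 1.10 in RC6. These are ratios of RNA levels and depend on the gene length the authors used.

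MYL6, the essential chain of smooth muscle and non-muscle cells, was at 269 FPKM in WC616, 319 in WC719 and 281 in WC921, against 232 FPKM in RC4, 193 in RC5 and 283 in RC6. RC6 fell among the Wagyu libraries, and RC4 and RC5 lay below all of these. The log2 fold change was 0.31 (standard error 0.17, 95% interval -0.09 to 0.71, limma adjusted p = 0.449), and 0.45 without RC6 (standard error 0.15, limma adjusted p = 0.302). MYL4, the essential chain of the atrium and of embryonic muscle, had 26 reads in WC616, 20 in WC719 and 12 in WC921, against 15 reads in RC4, 10 in RC5 and 16 in RC6. The exact Poisson interval of the highest, 16.98 to 38.1 reads, and that of the lowest, 4.80 to 18.4 reads, overlap, and they cover counting error only. No difference in MYL4 was detectable at this depth (log2 fold change 0.25, standard error 0.22, limma adjusted p = 0.615).

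**Figure D3:**
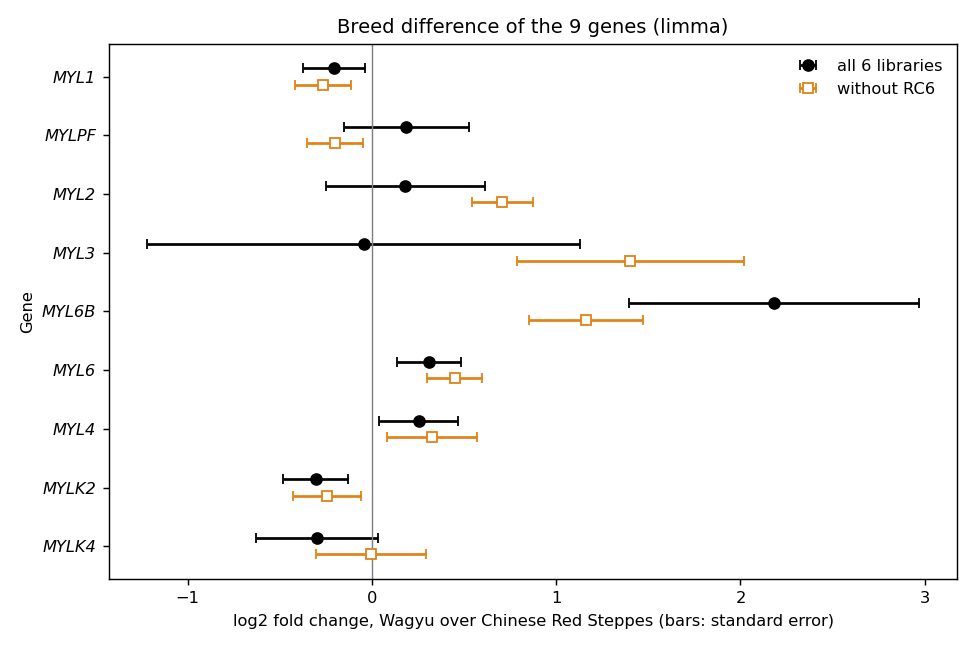
Log2 fold change of Wagyu over Chinese Red Steppes for the 9 genes from limma, with the standard error as bars, for all 6 libraries (black) and without RC6 (orange). MYL6B is at 2.18 and 1.16, and without RC6 MYL2 and MYL3 lie higher, MYLPF and MYL6B lie lower, and MYL3 and MYLPF change sign.

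MYLK2, the light chain kinase of skeletal muscle, was at 462 FPKM in WC616, 447 in WC719 and 352 in WC921, against 568 FPKM in RC4, 430.4 in RC5 and 563 in RC6. The breeds overlapped through RC5 alone. Its log2 fold change was -0.31 (standard error 0.18, 95% interval -0.72 to 0.11, limma adjusted p = 0.461), with a negative sign in all 15 alternatives. Its level in RC6 was 1.13 times the mean of RC4 and RC5. MYLK4, a kinase of the same family, had 10 reads in WC616, 31 in WC719 and 29 in WC921, against 29 reads in RC4, 16 in RC5 and 53 in RC6, so the breeds overlapped. Its log2 fold change was -0.30 (standard error 0.33, limma adjusted p = 0.711), against -0.0055 without RC6 and -0.037 without WC616. Per length MYLK2 had the highest FPKM of the light chain kinases listed. MYLK, the smooth muscle kinase, was at 2.05 to 5.04 FPKM and MYLK3, the cardiac kinase, at 0.156 to 5.17 FPKM over the 6 libraries.

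Of 7 genes listed for other light chain kinases and the myosin phosphatase, which removes the phosphate, 6 were tested and none passed limma in either direction (median log2 fold change 0.10). MYLK was at 3.08 FPKM in WC616, 5.04 in WC719 and 3.25 in WC921, against 2.18 FPKM in RC4, 2.05 in RC5 and 2.38 in RC6, with no overlap of the breeds (log2 fold change 0.56, standard error 0.19, limma adjusted p = 0.293). PPP1R14A, an inhibitor of the phosphatase best known from smooth muscle, was at 11.9 to 16.4 FPKM in Wagyu and 7.90 to 11.1 FPKM in Chinese Red Steppes (log2 fold change 0.44, standard error 0.18, limma adjusted p = 0.336). No overlap with Wagyu higher was seen for 2 of the 6 tested, MYLK and PPP1R14A, beside 11.4% of all genes tested. PPP1R12C, a targeting subunit of the phosphatase, had a log2 fold change of 0.26 (standard error 0.19, limma adjusted p = 0.576). Of the calmodulin genes, CALM3 was at 53.0 to 83.6 FPKM in Wagyu and 66.1 to 107 FPKM in Chinese Red Steppes (limma adjusted p = 0.569). A gene that the table names CALM, added after the values were seen, was at 807 to 983 FPKM in Wagyu and 728 to 1272 FPKM in Chinese Red Steppes (limma adjusted p = 0.818).

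Of 6 further light chain genes listed, 4 were in the table, MYL7 and MYL10 were listed at 0 in all 6 libraries, and MYL9 and MYL12B were tested. MYL9, the regulatory chain of smooth muscle, was at 771 FPKM in WC616, 651 in WC719 and 535 in WC921, against 357 FPKM in RC4, 489 in RC5 and 645 in RC6 (log2 fold change 0.42, standard error 0.24, limma adjusted p = 0.463). The other defining smooth muscle genes stood lower, MYH11 at 4.41 to 17.4 FPKM and ACTA2 at 34.1 to 109 FPKM. Of the 7 smooth muscle genes, 6 had a log2 fold change above 0 and none passed limma. Their median was 0.44, beside a median of 0.03 over all genes tested, and MYL9 and MYLK among them are also in the lists above. The summed level of the 7 smooth muscle genes was 777 to 1079.5 FPKM in Wagyu and 520 to 1053 FPKM in Chinese Red Steppes, so the breeds overlapped. Most of this sum was MYL9 in every library. The part of smooth muscle in the values of MYL6, MYL9 and MYLK was not tested. Of the fat cell genes, ADIPOQ, a hormone of fat cells, was at 0.0783 to 1.59 FPKM and LEP, another, at 0 in 4 of the 6 libraries. The summed level of 6 fat cell genes was 44.1 to 49.4 FPKM in Wagyu and 54.6 to 61.9 FPKM in Chinese Red Steppes, and most of it was PLIN4, at 35.1 to 45.4 FPKM in Wagyu and 43.4 to 59.4 FPKM in Chinese Red Steppes. ADIPOQ averaged 0.961 FPKM in Wagyu and 0.443 FPKM in Chinese Red Steppes, and PLIN1, a lipid droplet protein of fat cells, 1.54 FPKM in Wagyu and 1.24 FPKM in Chinese Red Steppes. CIDEC, another such protein, was at 1.12 to 1.69 FPKM in Wagyu and 0.0521 to 1.07 FPKM in Chinese Red Steppes. ADIPOQ, PLIN1 and CIDEC thus differed in direction from the sum, which mostly follows PLIN4 and is not given as a measure of fat cells. Of the 6 genes 3 were tested and none passed limma, while ADIPOQ, LEP and CIDEC fell below the filter on low values. FABP4, also on the list, went with the sum, averaging 3.75 FPKM in Wagyu and 6.09 FPKM in Chinese Red Steppes, and the breeds overlapped. The endothelial sum was 53.2 to 74.7 FPKM in Wagyu and 44.0 to 64.2 FPKM in Chinese Red Steppes, and the macrophage sum 5.65 to 12.6 FPKM in Wagyu and 3.66 to 9.79 FPKM in Chinese Red Steppes.

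Of the fibre type partners of the light chains, none of 8 slow and none of 10 tested fast partner genes passed limma, with median log2 fold changes of 0.04 and 0.09. MYOZ2, a Z-disc protein of slow fibres, was the 1 slow partner of 8 with no overlap. It was at 226 to 311 FPKM in Wagyu and 112 to 206 FPKM in Chinese Red Steppes (log2 fold change 0.70, standard error 0.24, limma adjusted p = 0.293). Over all genes tested, 11.4% had no overlap with Wagyu higher, so 1 of 8 genes is near that background. MYH7 had a log2 fold change of 0.23 (standard error 0.27), MYH2 of 0.08 (standard error 0.28) and MYH1, the fastest of these heavy chains, of -0.04 (standard error 0.54). In RC6 all 8 slow partners were above the mean of RC4 and RC5, at 1.41 to 3.50 times, and all 10 fast partners were below it, at 0.241 to 0.743 times, where 52.4% of all genes tested were above. This is a description of 1 library and has no test. MYL2, at 2.98 times, and MYLPF, at 0.448 times, lay within the ranges of their slow and fast partners. MYL3, at 18.9 times, lay above every slow partner. MYL1 lay above every fast partner, and MYL6B, at 0.114 times, below all of both lists.

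**Figure D4:**
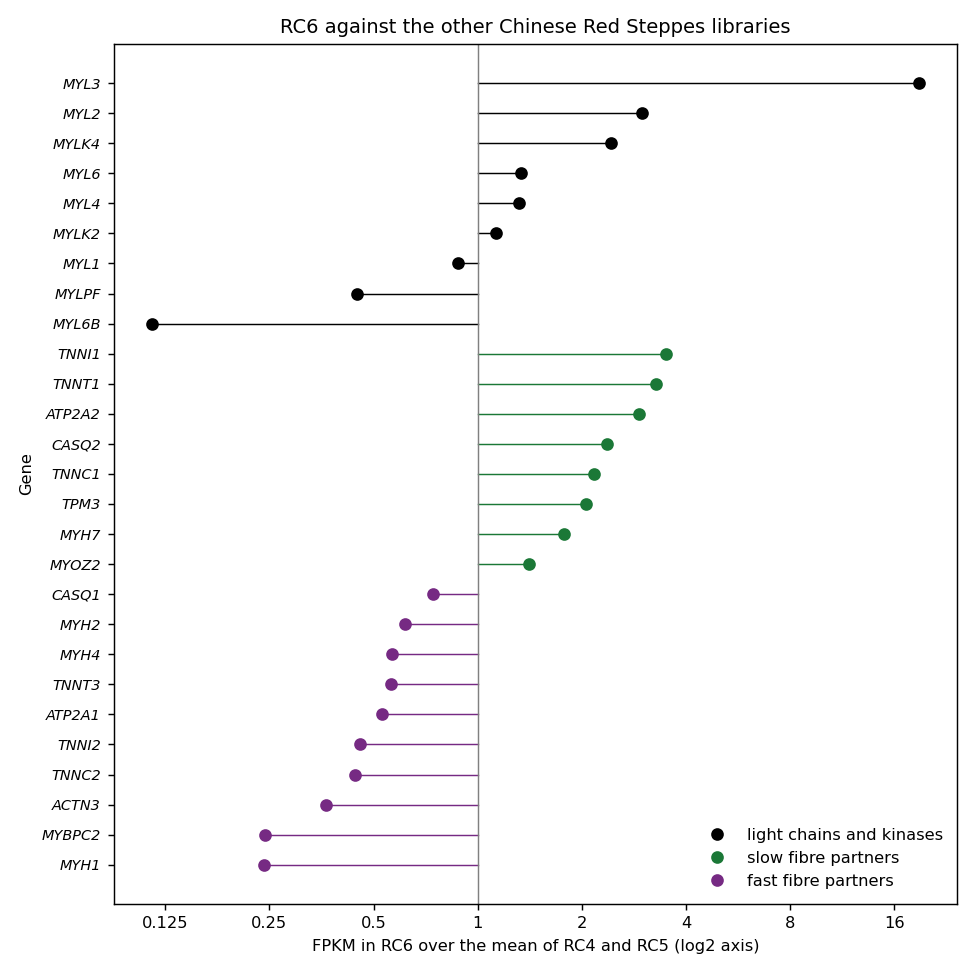
FPKM in RC6 over the mean of RC4 and RC5 on a log2 axis for the 9 genes (black), 8 slow fibre partners (green) and 10 fast fibre partners (purple), each list sorted. All slow partners lie above 1 and all fast partners below it, while among the 9 genes MYL3 and MYL6B, at 18.9 and 0.114, lie farthest out on opposite sides.

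The genes most like a member across the 6 libraries were found by the root mean square difference of log2(FPKM + 1) after subtracting each gene's own mean. For MYL2 the 5 nearest genes were TNNT1 (0.119), APOE (0.122), COL23A1 (0.127), TNNI1 (0.137) and GALNT14 (0.141), where the median of all genes was 0.594. TNNT1 and TNNI1 encode the slow forms of troponin T and troponin I. For MYLPF they were TNNI2 (0.0530), PC (0.113), TNNC2 (0.116), ACVR1B (0.1215) and ADAR (0.127), with a median of 0.480 over all genes. TNNI2 and TNNC2 encode the fast forms of troponin I and troponin C. Of these genes, COL23A1, at 0.200 to 3.18 FPKM, and GALNT14, at 0.733 to 4.42 FPKM, were low. ACVR1B, at 2.93 to 6.66 FPKM, and ADAR, at 1.30 to 3.29 FPKM, were low as well. The pseudocount of 1 understates changes at such levels, so the nearness of these low genes rests in part on it. The likenesses rest on 6 libraries and are given as a description.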

How the data were processed

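Poly(A) RNA of 6 longissimus muscles was sequenced in paired ends. Per the methods, the authors removed adaptors and low-quality reads and mapped with TopHat (v2.0.6) and Bowtie to UMD_3.1.1. The submitters' notes name HISAT2 and UMD3.1, and which made the values was not settled. Whether strand was used in counting is not stated in these sources. The authors deposited FPKM per gene and library, without further scaling, and raw read counts of 205 genes. That second table also holds the authors' own means, fold changes and corrected p-values, which were not used.

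The reads behind each library were worked out from the 205 genes and used to turn FPKM back into reads. Whole numbers came out for all 16770 genes above 0, at a relative tolerance of 1e-09, and were equal to the deposited counts for 203 of the 205 genes. The smallest gene length that gave whole numbers was taken, so reads that share a common factor come out too low. The recovered reads came to 99.8% of the counted reads in each library. The count models edgeR (4.0.16) and DESeq2 (1.42.0, at least 10 reads in all) used these reads as alternatives. The main test was limma (3.58.1, R 4.3.3, eBayes with trend) on log2(FPKM + 1), with Benjamini-Hochberg adjustment over the genes whose FPKM averaged 1 or more. The log2 scale with a pseudocount of 1 understates changes of low genes. A fold change is Wagyu over Chinese Red Steppes, and its 95% intervals are limma's. No pair of libraries agreed within counting error (chi-square divided by its degrees of freedom, at least 26.6), so each counted as 1 replicate. Python 3.11.15 with scipy 1.17.1 gave shares and intervals, and the fits were tested on simulated data.

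The 9 genes and the gene lists were chosen with earlier results of these data known, and lists are described by counts and medians only. Named genes are all 9 members, up to 3 genes per list with the smallest p, those with a role beside a member, and the 5 nearest to MYL2 and MYLPF. ADIPOQ, LEP, CIDEC, CALM, the HOXC genes, PITX1 and the genes of the closing observations were added after the values were seen. Alternatives were a pseudocount of 0.1, a mean FPKM of at least 5, no filter, quantile and equal-sum scaling, both count models and leaving out each library. The count models without RC6 were added after the data were seen.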

Additional observations from a re-analysis of the deposited data

How the results depend on the processing

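None of the 9 genes was called by limma under any pseudocount, filter, scaling or left-out library, nor by edgeR. DESeq2 without RC6 called 1, MYL6B. MYL1, MYL6, MYL4, MYLK2, MYLK4 and MYL6B kept their direction in every alternative in which they were tested, and MYL4 and MYLK4 had no value at a mean FPKM of at least 5. Their sizes moved by over 1.5 times: MYLK4 was at -0.0055 without RC6 and -0.037 without WC616, MYL4 at 0.096 without WC616, 0.15 without RC5 and 0.43 without WC921, MYL1 at -0.096 without RC5, MYL6 at 0.17 without RC5, MYLK2 at -0.18 without WC921, and MYL6B at 1.16 without RC6. MYLK4 also grew, to -0.47 at a pseudocount of 0.1 and to -0.56 with edgeR, with DESeq2 and without RC5. MYL4 grew to 0.40 at a pseudocount of 0.1, 0.44 with edgeR and 0.45 with DESeq2. Without RC6, MYL4 was at 0.58 with DESeq2 and 0.57 with edgeR, and MYL1 at -0.31 with both. MYL6B ranged from 1.12 to 2.87 on the log2 scale (adjusted p 0.0196 to 0.568). MYLPF reversed without RC6, to -0.20 with limma and -0.23 with both DESeq2 and edgeR, and ranged from -0.20 to 0.38 over the left-out libraries. MYL2 reversed without RC4 (-0.021), with edgeR (-0.044) and DESeq2 (-0.032), and ranged from -0.15 without RC5 to 0.71 without RC6. MYL3 reversed with quantile scaling (0.12) and equal-sum scaling (0.012) and without WC921 (0.60), was at -1.28 with edgeR and -1.26 with DESeq2 on all 6 libraries, ranged from -1.04 without RC4 to 1.40 without RC6 with limma, and was at 1.51 with DESeq2 and 1.50 with edgeR without RC6. DESeq2 gave it no p-value with all 6 libraries. The share of MYL2 in the regulatory chains differed between the breeds by -6.88 (without RC5) to 15.4 percentage points (without RC6) over the left-out libraries, and was negative without RC4 also. For MYL3 and MYL6B in the essential chains the range was -3.05 without RC4 to 24.5 without RC6. By reads rather than FPKM the differences were 1.90 and 1.99 percentage points.

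Over all genes, 1 was higher and 1 lower in Wagyu with limma. The number higher was 0 at a pseudocount of 0.1, at a mean FPKM of at least 5 and without a filter, 2 with quantile scaling, 4 with equal-sum scaling, 6 with edgeR and 153 with DESeq2. The number lower was 0 at a mean FPKM of at least 5 and without a filter, 2 with edgeR and 84 with DESeq2. Without RC6, DESeq2 called 161 higher and 85 lower and edgeR 8 and 6. With limma, leaving out a library gave 0 higher in each of the 6 cases and 0 to 3 lower. The cause of these changes was not tested. No paired analysis was possible because the animals of the breeds share no replicate number.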

Other observations

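The genes nearest to MYL3 and MYL6B were looked up by the same measure after their values were seen, and neither had a partner as close as MYL2 and MYLPF did. The nearest to MYL3 was at a root mean square difference of 0.761 and the nearest to MYL6B at 0.609, where all genes had medians of 1.62 and 1.54. This measure grows with a gene's own spread, and MYL3 and MYL6B varied most of the 9 genes. Their larger distances therefore cannot show that they lack genes with a similar pattern. Among the 5 nearest to MYL3 were FHL2, a LIM domain protein of heart and muscle, at 30.5 FPKM in RC6 and 1.14 to 2.01 FPKM in the other libraries, and PITX1. Among the 5 nearest to MYL6B were the position genes HOXC8 and HOXC6 and the muscle LIM protein CSRP3. CSRP3 stood at 2459 FPKM in WC616, 1911 in WC719 and 2982 in WC921, against 852 FPKM in RC4, 1753 in RC5 and 333 in RC6. The largest distance between any pair of the 9 genes was that of MYL3 and MYL6B, at 2.73.

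MYH3, the embryonic heavy chain, stood at 8.31 FPKM in WC616, 7.06 in WC719 and 0.659 in WC921, against 0.520 FPKM in RC4, 0.760 in RC5 and 3.19 in RC6. WC616, WC719 and RC6, the libraries with the most MYH3, were also those with the most MYL3. MYH7B, an ancient relative of the slow heavy chain, stood at 86.2 FPKM in WC616, 57.5 in WC719 and 19.98 in WC921, against 43.7 FPKM in RC4, 34.8 in RC5 and 113 in RC6, and its 3 highest libraries were the same.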
